A study of Homo sapiens with 20 samples.

Results

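The genes described here encode the proteins of the mitochondrial ribosome, measured in 5 cell lines of classical Hodgkin lymphoma (cHL) in which the transcription factor FOXO1 could be switched on. Members were chosen by name: every probe set that the platform annotation pairs with exactly 1 gene symbol, where that symbol is MRPL or MRPS followed by a number. The rule found 78 probe sets of 74 genes, of 18416 genes with such a probe set. They are 50 proteins of the large subunit, 23 of the small subunit and 1 pseudogene, MRPS31P5. MRPS18A and MRPS30 were counted with the large subunit, where their proteins sit despite their names. RefSeq lists 77 protein-coding genes with such names. The 4 others, MRPS24, MRPS28, MRPL51 and MRPS6, lie in probe sets that carry several symbols and were not used. MRPS36, since assigned to a dehydrogenase complex, was not among the members.

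Mitochondria keep ribosomes of their own, which make a small set of membrane proteins encoded in mitochondrial DNA, all of them parts of the respiratory chain and the ATP synthase. The ribosomal RNAs come from mitochondrial DNA, but every protein of the ribosome is encoded in the nucleus, made in the cytosol and imported, so the particle depends on many nuclear genes being expressed together. Some of these proteins have counterparts in bacterial ribosomes and others are found only in mitochondria. In growing lymphoid cells, MYC is known to promote mitochondrial biogenesis, and FOXO factors are known to oppose MYC.

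Each line stably expressed FOXO1(3A)ER, a FOXO1 mutant that can no longer be inactivated by phosphorylation, joined to the hormone-binding domain of the oestrogen receptor. The fusion protein becomes active when 4-hydroxytamoxifen (4-OHT) is added. SUP-HD1, UHO-1, L1236, KM-H2 and L428 cells carrying the fusion received 4-OHT for 24 h, against cells of the same line that received ethanol vehicle for 24 h, with 2 arrays in each of the 10 groups. Every group carried the fusion, and no cells without it were treated, so effects of 4-OHT itself and of the fusion cannot be told apart. The dose is not given here, because the treatment text of the labels names another fusion protein. The labels say that the experiment was repeated, without saying whether a group's arrays stem from different cultures, and the spread behind the p-values may therefore be partly technical. The labels do not say whether each line was a clone or a pool.

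The values are log2 RMA signals from Affymetrix Human Gene 1.0 ST arrays. The arrays formed 2 sets, KM-H2 with L428 (8 arrays) and L1236 with UHO-1 and SUP-HD1 (12 arrays). Sorted values differed by at most 0.253 within the sets and by at least 0.712 between them. The sets were taken as 2 normalisations, which was inferred from these values alone. Each line was therefore set against its own vehicle, and levels were compared only within a set. Array medians lay between 5.67 and 5.71 in the first and between 6.26 and 6.41 in the second. All 7 Hodgkin cell markers tested (TNFRSF8, FSCN1, CCL17, TRAF1, EBI3, IRF4 and GATA3) were above log2 5 on all 20 arrays. So were the stromal genes COL1A1, COL1A2 and COL3A1, the myeloid gene CSF1R and the B cell genes CD79A, CD79B and PAX5. Of the other B cell and myeloid markers measured, MS4A1 reached log2 5 on 0 of the 20 arrays, LYZ on 3 and CD14 on 19. This level therefore does not mark a cell type. With vehicle, the Hodgkin markers averaged 7.25 in L1236, against 10.5 in UHO-1 and 9.60 in SUP-HD1. The 4 T cell markers CD3D, CD3E, CD3G and CD247 lay between 9.13 and 12.3 on the 4 arrays labelled L1236 and between 4.35 and 6.43 on the other 16, so the arrays labelled L1236 stand apart. On these arrays the 4 B cell markers MS4A1, CD79A, CD79B and PAX5 averaged 7.35 with 4-OHT and 6.79 with vehicle. The 3 myeloid markers CD14, LYZ and CSF1R averaged 6.53 with 4-OHT and 5.24 with vehicle. LYZ had both the lowest and the highest of their group means, 4.27 with vehicle and 7.93 with 4-OHT. The difference in this average is thus mostly that of LYZ. The part of these marker differences in the results was not tested, and the main count is given with and without L1236. FOXO1 itself read between 9.08 and 10.9, a signal in which the cell's own gene and the fusion cannot be told apart.

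Averaged over the 5 lines, mitochondrial ribosomal protein genes were lower with 4-OHT. Of the 74 members, 53 passed the test, 50 of them lower and 3 higher, which is 71.6% of members against 38.6% of all 15850 genes tested (limma, Benjamini-Hochberg adjusted p below 0.05, here called "called"). Among all genes, 21.2% were called lower and 17.4% higher. The median log2 change (4-OHT minus vehicle) was -0.15 for the members and -0.02 for all genes tested. The changes were small: 24 members were called with an average fall of at least 0.2 log2 and 10 with one of at least 0.3. All 74 members passed the floor on low signal, and no array read below it for any member, so these counts cover every member. Without L1236 the count was 41 (38 lower, 3 higher), 55.4% of members against 39.2% of all genes in the same fit. Without L428 it was 43 (41 lower, 2 higher), 58.1% of members against 31.8% of all genes. When the 5 lines, not the arrays, were taken as the replicates, limma called 0 members (0.00%) and 2 of all 15850 genes tested (0.0126%). In bulk RNA, fewer cells with a transcript and less of it per cell cannot be told apart.

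The fall was found in both subunits. In the large subunit 37 of 50 genes were called, 35 lower and 2 higher, with a median change of -0.16 log2. In the small subunit 16 of 23 were called, 15 lower and 1 higher, with a median of -0.11. Of 43 members with a bacterial counterpart, 33 were called lower and 1 higher (median -0.17). Of 30 mitochondria-specific members, 17 were called lower and 2 higher (median -0.15). Of all genes tested, 38.6% were called, 21.2% lower and 17.4% higher (median -0.02). The pseudogene MRPS31P5 had an average change of 0.09 ± 0.06 log2 (SE) and was not called (adjusted p = 0.254 by limma).

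**Figure D1:**
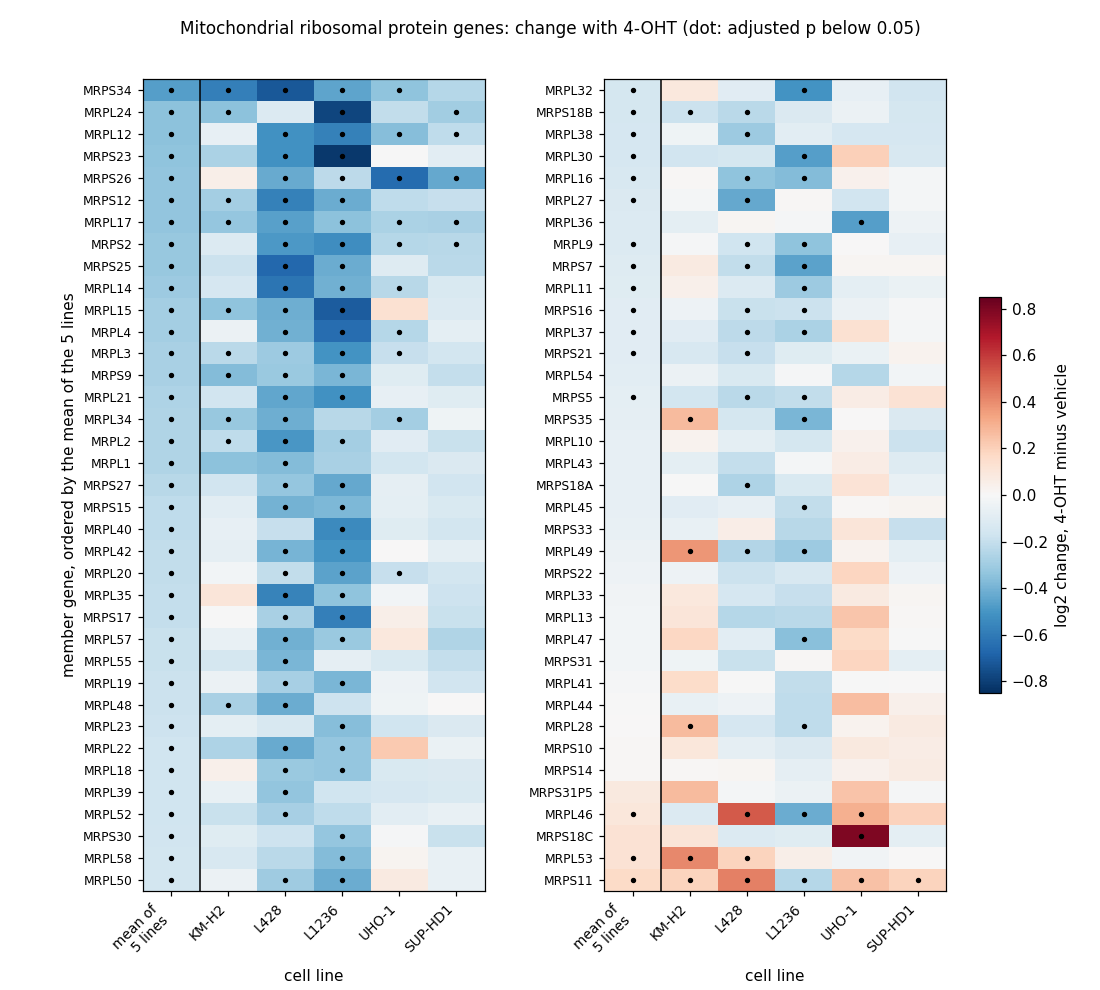
The log2 change (4-OHT minus vehicle) of each of the 74 members, as the mean of the 5 lines and in each line. Colour gives the change, black dots mark an adjusted p below 0.05, and members run down the page by their mean, first the left panel and then the right. The 50 members called lower on average fill the left panel and the top of the right panel, and most dots in single lines stand in the L428 and L1236 columns.

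The largest average fall was that of MRPS34, a mitochondria-specific protein of the small subunit (chromosome 16). In L428 its signal was 8.69 and 8.76 with 4-OHT, against 9.36 and 9.54 with vehicle. In KM-H2 it was 8.65 and 8.49 with 4-OHT, against 9.18 and 9.11 with vehicle. Every 4-OHT array lay below both vehicle arrays in these lines. The same held in L1236, at 9.13 and 9.06 with 4-OHT against 9.54 and 9.54 with vehicle. In UHO-1, MRPS34 read 9.03 and 9.02 with 4-OHT, against 9.46 and 9.28 with vehicle. In SUP-HD1 it read 9.10 and 9.10 with 4-OHT, against 9.36 and 9.32 with vehicle. The groups thus overlapped in no line. The average change was -0.47 ± 0.03 log2 (SE), a 1.38-fold lower signal (limma adjusted p = 1.7e-10). The change was -0.72 in L428 and -0.58 in KM-H2, both called, and -0.24 in SUP-HD1, where it missed the threshold (adjusted p = 0.0609). SUP-HD1 differed from the mean of the other lines by 0.28 ± 0.08 log2 (adjusted p = 0.0493). The MRPS34 gene overlaps EME2 in RefSeq.

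MRPL17 encodes a large-subunit protein with a bacterial counterpart (chromosome 11). With the probe sets used, it was the 1 member called lower in every line, as were 0.240% of all genes tested. A probe set of MRPL36 that was not used was also called lower in every line. With 4-OHT, MRPL17 read 9.60 and 9.57 in KM-H2, against 9.94 and 9.90 with vehicle. In L428 it read 8.47 and 8.33 with 4-OHT, against 8.76 and 8.96 with vehicle. L1236 gave 9.79 and 9.67 with 4-OHT, against 10.1 and 10.1 with vehicle. These values put both 4-OHT arrays below both vehicle arrays, as did those of the remaining lines. UHO-1 gave 9.83 and 9.82 with 4-OHT, against 10.1 and 10.1 with vehicle. SUP-HD1 gave 10.05 and 9.98 with 4-OHT, against 10.3 and 10.3 with vehicle. The changes ran from -0.27 log2 in UHO-1 to -0.46 in L428, with an average of -0.34 ± 0.03 (limma adjusted p = 7.22e-09). The F test between lines gave an adjusted p of 0.414, which does not show that the lines acted alike. In SUP-HD1 the call for MRPL17 was lost when any of that line's 4 arrays was left out, with an adjusted p of up to 0.199.

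The promoters of these 2 members are shown because MRPS34 fell most on average and MRPL17 was called lower in every line. They are RefSeq windows of GRCh38.p14, 250 bases before to 50 after the start, given 5′ to 3′ on the gene's strand. Capitals mark ACTTCCGG, the reverse complement of the ETS motif CCGGAAGT, in MRPS34 (chr16:1773085-1773384, minus strand). The window of MRPL17 (chr11:6683291-6683590, minus strand) held none of the motifs searched below, so it has no capitals.
MRPS34: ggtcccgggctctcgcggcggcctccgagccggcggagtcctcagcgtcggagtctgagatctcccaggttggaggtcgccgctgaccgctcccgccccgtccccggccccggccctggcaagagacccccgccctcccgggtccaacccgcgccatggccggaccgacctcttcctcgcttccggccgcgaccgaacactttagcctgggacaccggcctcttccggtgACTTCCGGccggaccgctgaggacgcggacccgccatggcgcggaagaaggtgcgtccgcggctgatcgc
MRPL17: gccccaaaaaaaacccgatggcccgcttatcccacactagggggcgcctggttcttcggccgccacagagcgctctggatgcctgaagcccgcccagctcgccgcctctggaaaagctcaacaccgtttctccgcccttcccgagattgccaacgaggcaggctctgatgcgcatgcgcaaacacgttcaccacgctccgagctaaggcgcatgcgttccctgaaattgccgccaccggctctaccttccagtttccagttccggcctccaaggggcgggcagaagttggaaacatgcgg

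A RefSeq window was found for 66 of the 74 members, and 4 motifs were searched in them on both strands. The YY1 motif AAGATGGCG was in a window of 18.2% of these members, against 3.81% of the 12377 tested genes with a window. The ETS motif CCGGAAGT was in 16.7% of members, against 8.01% of tested genes. The E-box CACGTG, the sequence MYC binds, was in 13.6% of members, against 11.6% of tested genes. The forkhead motif GTAAACA was in no member's window (0.00%), against 3.47% of tested genes. Over all 35116 windows, the shares were 1.75% for YY1, 4.14% for ETS, 7.26% for the E-box and 3.42% for forkhead. Of 45 members called lower on average that have a window, 8 held YY1, 8 held ETS and 4 held the E-box. Of the other 21 members, 4 held YY1, 3 held ETS and 5 held the E-box. These are matches of letters in a short window and not binding sites.

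MRPL12, the counterpart of the bacterial stalk protein that receives translation factors (chromosome 17), was called lower in 4 lines. In L1236 it read 9.24 and 9.23 with 4-OHT, against 9.88 and 9.75 with vehicle. In L428 it read 9.22 and 9.29 with 4-OHT, against 9.79 and 9.75 with vehicle. In UHO-1 the signal was 9.25 and 9.20 with 4-OHT, against 9.65 and 9.52 with vehicle. The 4-OHT arrays of these lines lay clear below their vehicle arrays. KM-H2 gave 9.23 and 9.12 with 4-OHT, against 9.26 and 9.24 with vehicle, a change of -0.07 ± 0.06 log2 that was not called. SUP-HD1 gave 9.17 and 9.20 with 4-OHT, against 9.40 and 9.40 with vehicle. The changes ran through -0.58 in L1236, -0.51 in L428 and -0.36 in UHO-1, and SUP-HD1 had -0.22 with an adjusted p of 0.049. The responses differed between lines (F test adjusted p = 0.000485).

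MRPS26, a mitochondria-specific small-subunit protein (chromosome 20), fell most in UHO-1, where few members were called. It read 8.47 and 8.37 with 4-OHT in UHO-1, against 9.08 and 9.08 with vehicle, a change of -0.66 ± 0.07 log2 (limma adjusted p = 7.57e-07). SUP-HD1 gave 8.41 and 8.45 with 4-OHT, against 8.86 and 8.87 with vehicle, a change of -0.43 (adjusted p = 0.000467). Of the members, MRPS26 had the lowest change in both of these lines. In L428 it read 7.83 and 7.75 with 4-OHT, against 8.24 and 8.21 with vehicle. In L1236 it read 8.91 and 8.82 with 4-OHT, against 9.15 and 9.03 with vehicle. KM-H2 was the exception, at 8.40 and 8.28 with 4-OHT against 8.31 and 8.27 with vehicle, where the arms overlapped. The UHO-1 response minus the mean of the other lines was -0.40 ± 0.08 (adjusted p = 0.00267), and that of KM-H2 was 0.49 ± 0.08 (adjusted p = 0.000105).

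In L1236 the largest falls were those of MRPS23, MRPL24 and MRPL15. MRPS23, mitochondria-specific, read 7.44 and 7.10 with 4-OHT in L1236, against 8.01 and 8.18 with vehicle, a change of -0.82 ± 0.11 log2 (1.77-fold lower). MRPL24, the counterpart of a bacterial protein that starts large-subunit assembly, read 7.85 and 7.82 with 4-OHT, against 8.59 and 8.64 with vehicle, a change of -0.78 ± 0.08 (1.72-fold lower). MRPL15, a large-subunit protein with a bacterial counterpart, read 8.84 and 8.79 with 4-OHT, against 9.49 and 9.56 with vehicle, a change of -0.71 ± 0.08. No 4-OHT array of L1236 reached a vehicle array for any of them. In UHO-1, MRPL15 read 9.19 and 9.25 with 4-OHT, against 9.14 and 9.04 with vehicle (0.13, adjusted p = 0.229). MRPS23 in UHO-1 read 8.68 and 8.67 with 4-OHT, against 8.73 and 8.63 with vehicle, so the arms overlapped (-0.01 ± 0.11). MRPL24 in UHO-1 read 8.80 and 8.55 with 4-OHT, against 8.94 and 8.82 with vehicle, a lower signal that missed the threshold (-0.21, adjusted p = 0.0591). The MRPL15 response differed between lines (F test adjusted p = 3.45e-05), and in UHO-1 it lay 0.52 ± 0.09 log2 above the mean of the other lines (adjusted p = 0.000364).

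In L428 the largest falls after MRPS34 were those of MRPS25 and MRPL14. MRPS25, a mitochondria-specific small-subunit protein, read 7.77 and 7.72 with 4-OHT in L428, against 8.42 and 8.41 with vehicle, a change of -0.67 ± 0.07 log2 (limma adjusted p = 1.57e-07). MRPL14, which lies at the face where the subunits join and is bound by the factor MALSU1, read 7.95 and 8.10 with 4-OHT, against 8.64 and 8.65 with vehicle (-0.62 ± 0.08, adjusted p = 1.2e-06). Both exceeded their change in the other lines: the L428 response minus the mean of the others was -0.43 ± 0.08 for MRPS25 (adjusted p = 0.00041) and -0.39 ± 0.09 for MRPL14 (adjusted p = 0.00196). MRPS12, the counterpart of the bacterial protein that keeps decoding accurate, read 8.10 and 8.05 with 4-OHT in L428, against 8.63 and 8.67 with vehicle (-0.57 ± 0.09). It was also called lower in L1236 (-0.42) and KM-H2 (-0.29), and its average was -0.34 ± 0.04 (adjusted p = 4.18e-07). MRPS2 averaged -0.32 ± 0.03 and was called lower in every line other than KM-H2. MRPL4, which lines the tunnel through which new proteins leave, averaged -0.29 ± 0.03, with -0.65 in L1236. MRPL3 averaged -0.28 ± 0.03 and was called lower in every line other than SUP-HD1.

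**Figure D2:**
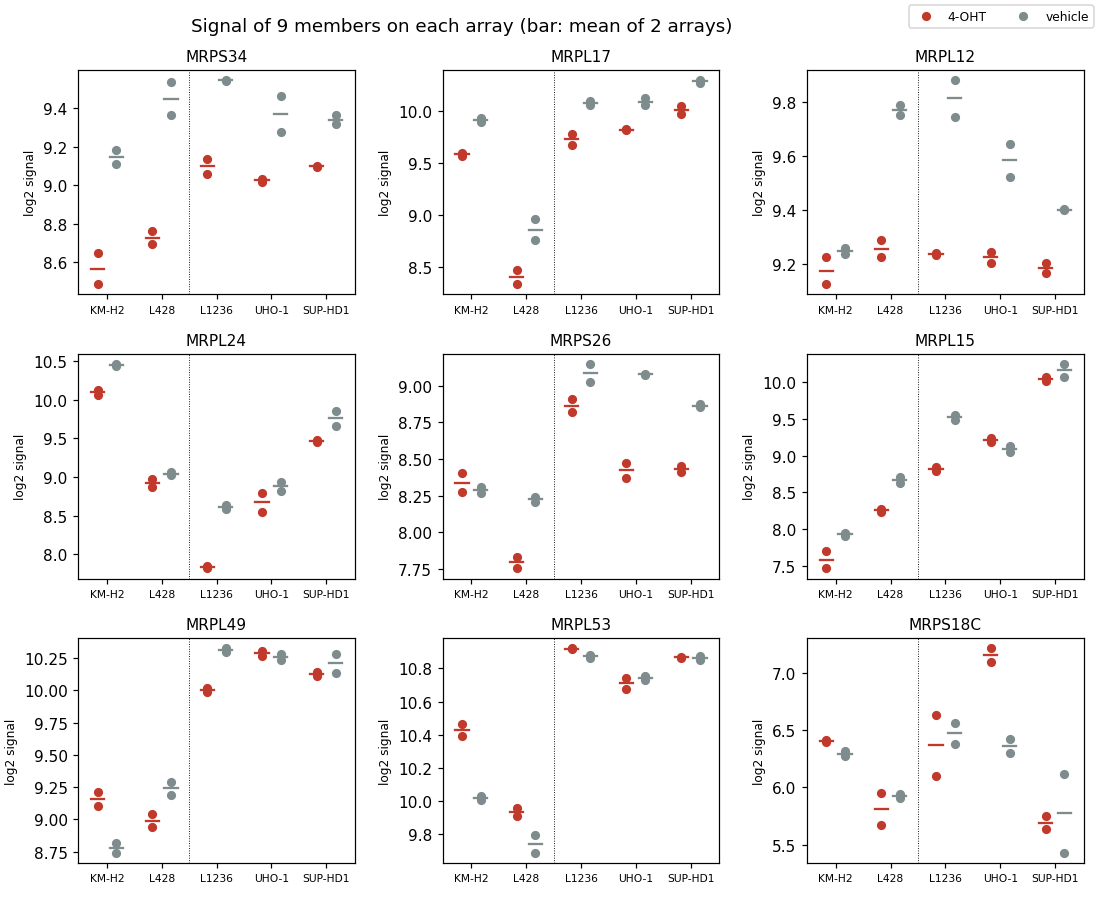
The log2 signal of 9 members on each of the 20 arrays, by cell line, with 4-OHT (red) left of vehicle (grey). Points are single arrays and bars the mean of 2, and the dotted line parts the 2 sets taken as separate normalisations. MRPS34 and MRPL17 are lower with 4-OHT in every line, MRPL49 and MRPL53 are higher in KM-H2, and MRPS18C is higher in UHO-1.

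The lines differed in how far the family moved. L428 and L1236 held most of the calls. In L428, 47 members were called, 44 lower and 3 higher, against 29.5% of all genes (17.5% lower, 12% higher), and the member median was -0.24 log2. In L1236, 47 were called and all of them were lower, against 23.1% of all genes (14.9% lower, 8.25% higher), with a median of -0.31. Called lower in both lines were 33 members, 44.6% of members against 6.79% of all genes. In L428 both 4-OHT arrays lay below both vehicle arrays for 62 members (83.8%, against 32.4% of all genes), and in L1236 for 61 (82.4%, against 28.6% of all genes). The lowest of the 5 changes was that of L1236 for 41 members, of L428 for 28, of UHO-1 for 4, of SUP-HD1 for 1 and of KM-H2 for 0.

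In the other lines fewer members were called. KM-H2 had 16 members called (21.6%), 11 lower and 5 higher, against 22.3% of all genes (12.3% lower, 10.0% higher), and a median of -0.06 log2. UHO-1 had 14 called (18.9%), 11 lower and 3 higher, against 24.5% of all genes (11.1% lower, 13.4% higher). Its member median of -0.02 was close to that of all genes, -0.03. SUP-HD1 had 6 called (8.11%), 5 lower (MRPL12, MRPL17, MRPL24, MRPS2 and MRPS26) and 1 higher (MRPS11), against 6.03% of all genes (2.35% lower, 3.68% higher). Its median was -0.09, against -0.03 for all genes, and both 4-OHT arrays lay below both vehicle arrays for 31 members (41.9%, against 25.4% of all genes) and above them for 5 (6.76%, against 19.1%). In KM-H2 those counts were 36 below (48.6%, against 30.0% of all genes) and 13 above (17.6%, against 28.0%). In UHO-1 they were 26 below (35.1%, against 39.5%) and 19 above (25.7%, against 31.1%). Leaving out KM-H2 vehicle array 2 lowered that line's count to 10. Leaving out UHO-1 vehicle array 1, vehicle array 2 or 4-OHT array 2 lowered the UHO-1 count to as few as 7. Leaving out any SUP-HD1 array, or either KM-H2 vehicle array, lowered the SUP-HD1 count, to as few as 1. Only the fits with the largest shifts in a count are listed here. Leaving out other arrays also cost single calls, such as that of MRPS11 in SUP-HD1 without any UHO-1 array.

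**Figure D3:**
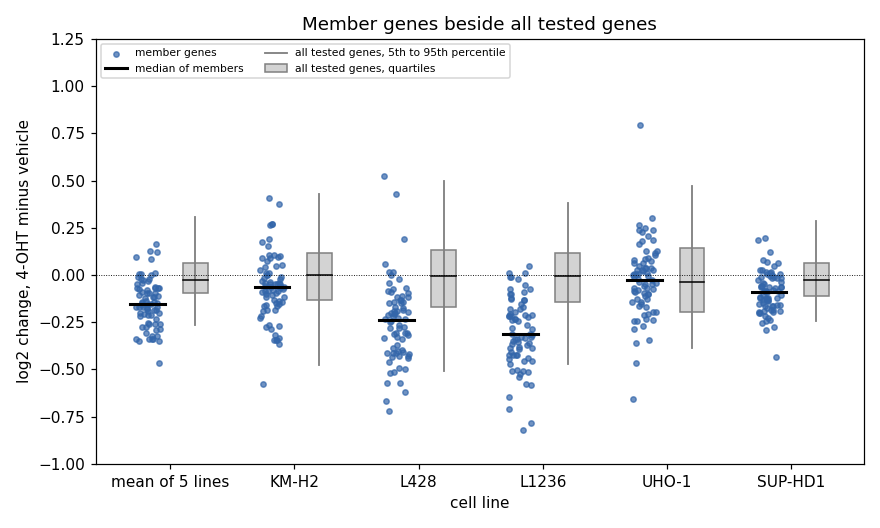
The log2 change (4-OHT minus vehicle) of the 74 members (blue points, black bar at their median) beside all 15850 genes tested (grey box for the quartiles with their median, grey line from the 5th to the 95th percentile), for the mean of the 5 lines and for each line. The member median lies at -0.31 in L1236 and -0.24 in L428, and at -0.02 in UHO-1, beside medians of all genes near 0.

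The responses of 43 members differed between lines by the F test, 58.1% of members against 42.7% of all genes. When each line's response was set against the mean of the other 4, L1236 differed for 30 members, all of them lower in L1236, against 23.7% of all genes (14.8% lower, 8.86% higher). L428 differed for 17 members, 14 lower and 3 higher, against 20.5% of all genes (12.4% lower, 8.14% higher). KM-H2 differed for 14 members, 1 lower and 13 higher, against 20.5% of all genes (10.8% lower, 9.75% higher). UHO-1 differed for 16, 3 lower and 13 higher, against 16.0% of all genes (6.29% lower, 9.71% higher). SUP-HD1 differed for 2, both higher, against 6.59% of all genes (3.21% lower, 3.38% higher). These 5 comparisons share all 20 arrays and are not independent of each other.

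MYC, the transcription factor known for driving genes of growth and mitochondrial biogenesis, was lower with 4-OHT in every line. Its change was -2.44 ± 0.08 log2 in KM-H2, where it read 6.54 and 6.67 with 4-OHT against 9.03 and 9.06 with vehicle. L1236 had -1.37, L428 -0.61, SUP-HD1 -0.43 and UHO-1 -0.21, all called by limma, the last at an adjusted p of 0.0468. The order of the lines by MYC was not that of the member medians: KM-H2 had the largest MYC change and a member median of -0.06, while L428 had a median of -0.24 with a MYC change of -0.61. The part of MYC in the change of the members was not tested.

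Many members had a change of the same sign in every line. It was negative in all 5 lines for 30 members, against 9.74% of all genes, and positive in all 5 for 0 members, against 6.75%. Called lower in at least 2 lines were 37 members (13.5% of all genes) and in at least 3 lines 15 (4.62%). In at least 4 lines there were 6 (1.41% of all genes): MRPL12, MRPL17, MRPL3, MRPS2, MRPS26 and MRPS34. The 13 members called in no line (17.6%, against 40.7% of all genes) were MRPL10, MRPL13, MRPL33, MRPL41, MRPL43, MRPL44, MRPL54, MRPS10, MRPS14, MRPS22, MRPS31, MRPS33 and the pseudogene MRPS31P5. Among them MRPS14 had line changes from -0.07 to 0.07 log2 and an average of 0.01 ± 0.04.

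A few members went the other way. Called higher in at least 1 line were 7 members (9.46%, against 29.1% of all genes): MRPL28, MRPL46, MRPL49, MRPL53, MRPS11, MRPS18C and MRPS35. All of these but MRPL53 and MRPS18C were also called lower in another line, so 5 of the 74 members (6.76%) were called in both directions, against 8.12% of all genes. MRPS11, the counterpart of a bacterial protein of the small-subunit platform, was called higher in 4 lines and lower in L1236. In L428 it read 9.32 and 9.26 with 4-OHT, against 8.92 and 8.80 with vehicle, a change of 0.43 ± 0.05 log2 (limma adjusted p = 1.9e-06). UHO-1 gave 12.17 and 12.18 with 4-OHT, against 11.92 and 11.94 with vehicle. KM-H2 gave 8.80 and 8.70 with 4-OHT, against 8.57 and 8.54 with vehicle. In each of these lines both 4-OHT arrays were above both vehicle arrays. SUP-HD1 gave 11.88 and 11.81 with 4-OHT, against 11.67 and 11.65 with vehicle (0.19, adjusted p = 0.0438, lost under 14 of the other settings). L1236 gave 10.58 and 10.61 with 4-OHT, against 10.87 and 10.81 with vehicle, the opposite order (-0.24 ± 0.05, adjusted p = 0.0018). The F test between lines gave an adjusted p of 6.2e-06.

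MRPL46, mitochondria-specific and part of the large subunit, showed the same opposition between L428 and L1236. It read 10.43 and 10.44 with 4-OHT in L428, against 9.95 and 9.88 with vehicle (0.52 ± 0.06 log2, adjusted p = 2.87e-07). In L1236 it read 9.70 and 9.51 with 4-OHT, against 10.02 and 10.04 with vehicle (-0.42 ± 0.06, adjusted p = 8.25e-06). UHO-1 gave 11.66 and 11.65 with 4-OHT, against 11.34 and 11.36 with vehicle (0.30 ± 0.06). SUP-HD1 read higher too, at 10.96 and 10.97 with 4-OHT against 10.81 and 10.74 with vehicle, but missed the threshold (adjusted p = 0.0527). KM-H2 read 9.58 and 9.50 with 4-OHT, against 9.62 and 9.69 with vehicle (-0.12 ± 0.06, not called). MRPL46 had the smallest p of all members for a difference between lines (F test adjusted p = 3.48e-08). Its average of 0.10 ± 0.03 (adjusted p = 0.00544) was not called when L428, UHO-1 or SUP-HD1 was left out. It was -0.01 without L428 (adjusted p = 0.813), 0.04 without UHO-1 (adjusted p = 0.333) and 0.07 without SUP-HD1 (adjusted p = 0.0745).

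MRPL46 and MRPS11 are neighbours on chromosome 15, on opposite strands, with RefSeq starts 320 bases apart and transcription running away from each other. Their promoter windows are shown because they share 181 bases, MRPL46 at chr15:88467339-88467638 (minus strand) and MRPS11 at chr15:88467458-88467757 (plus strand). Capitals mark the YY1 motif AAGATGGCG in MRPL46, and the MRPS11 window held none of the 4 motifs.
MRPL46: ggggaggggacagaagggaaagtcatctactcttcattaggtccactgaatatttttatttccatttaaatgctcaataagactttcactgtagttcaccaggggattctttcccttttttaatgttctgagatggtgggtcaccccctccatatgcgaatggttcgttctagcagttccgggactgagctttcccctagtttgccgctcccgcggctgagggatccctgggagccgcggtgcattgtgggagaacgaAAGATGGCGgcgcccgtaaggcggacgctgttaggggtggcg
MRPS11: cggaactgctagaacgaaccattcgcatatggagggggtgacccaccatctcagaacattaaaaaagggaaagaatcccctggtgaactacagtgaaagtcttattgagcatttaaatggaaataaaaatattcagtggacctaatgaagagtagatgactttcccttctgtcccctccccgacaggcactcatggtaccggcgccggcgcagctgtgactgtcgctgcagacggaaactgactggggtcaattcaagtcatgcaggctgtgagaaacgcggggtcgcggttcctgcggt

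MRPS18C, MRPS18A and MRPS18B are 3 relatives of the same bacterial protein, the first and last in the small subunit and MRPS18A in the large one. MRPS18C (chromosome 4) had the largest rise of any member, in UHO-1, at 7.21 and 7.10 with 4-OHT against 6.42 and 6.30 with vehicle (0.79 ± 0.17 log2, 1.73-fold, limma adjusted p = 0.00202). In SUP-HD1 it read 5.75 and 5.63 with 4-OHT, against 6.12 and 5.43 with vehicle. In L1236 it read 6.64 and 6.10 with 4-OHT, against 6.38 and 6.56 with vehicle. The arms overlapped in both, and arrays of the same group lay far apart there. The UHO-1 response exceeded the mean of the other lines by 0.84 ± 0.19 (adjusted p = 0.00569), and the average over lines was not called (adjusted p = 0.24). Without SUP-HD1 vehicle array 1 the average was 0.19 and was called (adjusted p = 0.0237). MRPS18B averaged -0.15 ± 0.03 (adjusted p = 7.35e-05), with changes from -0.23 in L428 to -0.05 in UHO-1. MRPS18A averaged -0.07 ± 0.03 (adjusted p = 0.0772) and was called lower in L428 alone (-0.27 ± 0.07). That average was called in 4 other fits: without KM-H2 (adjusted p = 0.0348), without UHO-1 (0.0136), without KM-H2 4-OHT array 2 (0.0185) and without SUP-HD1 vehicle array 2 (0.0386). The RefSeq window of MRPS18C (chr4:83455808-83456107, plus strand) is shown for the member with the largest rise, with its E-box CACGTG in capitals.
MRPS18C: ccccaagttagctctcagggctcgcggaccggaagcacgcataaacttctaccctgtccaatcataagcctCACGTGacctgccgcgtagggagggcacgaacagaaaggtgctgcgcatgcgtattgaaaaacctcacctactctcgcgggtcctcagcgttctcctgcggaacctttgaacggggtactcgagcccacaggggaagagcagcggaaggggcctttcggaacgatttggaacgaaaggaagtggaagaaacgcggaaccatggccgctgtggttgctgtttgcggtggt

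Of the 66 members with a promoter window, 23 had one that overlaps the window of a gene on the opposite strand. In 15 such pairs that are transcribed away from each other both genes were tested, the pair MRPL46 and MRPS11 among them. On average over the lines, both genes were called lower in 6 pairs, both higher in 1, and in opposite directions in 1 (MRPL50 lower and ZNF189 higher). In the remaining 7 pairs, 1 gene or none was called. Taken singly, 50 of the 74 members and 21.2% of all genes were called lower. The share of such pairs among all genes was not counted, so whether neighbours changed together was not tested. HELQ, a DNA helicase gene that starts 175 bases from MRPS18C, changed by 0.54 ± 0.11 log2 in UHO-1 (adjusted p = 0.000952), beside 0.79 for MRPS18C. TCP1, a chaperonin subunit gene beside MRPL18, averaged -0.20 ± 0.02 (adjusted p = 1.27e-07), beside -0.17 ± 0.03 for MRPL18. SARS2, the mitochondrial seryl-tRNA synthetase gene beside MRPS12, averaged -0.20 ± 0.04 (adjusted p = 0.000317), beside -0.34 for MRPS12. In contrast TMEM63B, beside MRPL14, averaged 0.04 ± 0.04 and was not called, beside -0.31 for MRPL14. The partners named here were picked after their values were seen.

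**Figure D4:**
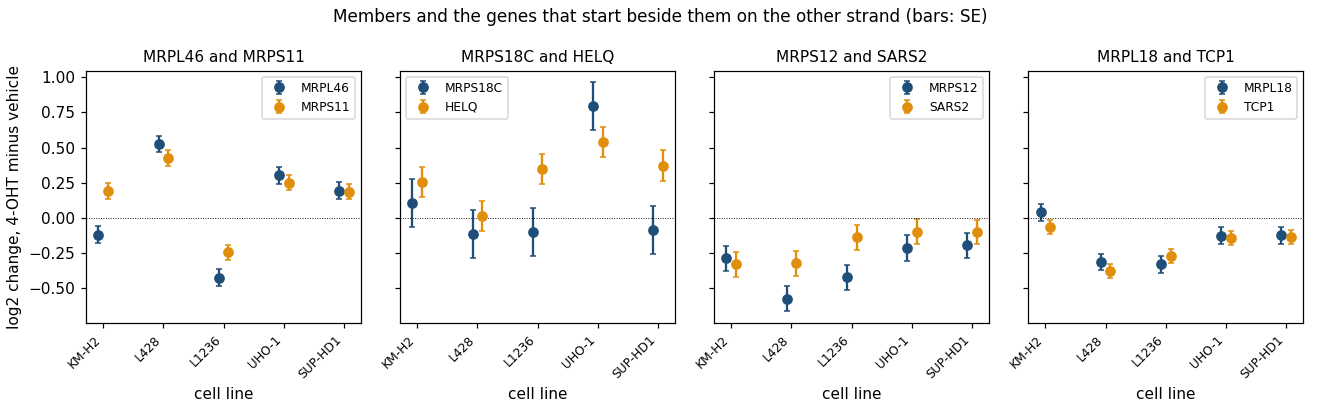
The log2 change (4-OHT minus vehicle) in each cell line of 4 pairs of genes that start beside each other on opposite strands, with the member in blue and its neighbour in orange (for MRPL46 and MRPS11 both are members); bars give the SE of the fit. MRPL46 and MRPS11 are both above 0 in L428 and both below 0 in L1236, and MRPS18C and HELQ are both highest in UHO-1.

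In KM-H2 the largest rises were those of MRPL53, MRPL49 and MRPS35. MRPL53, a mitochondria-specific large-subunit protein, read 10.39 and 10.46 with 4-OHT in KM-H2, against 10.03 and 10.01 with vehicle (0.41 ± 0.05 log2, limma adjusted p = 1.59e-06). It was also called higher in L428 (0.19), a call lost without 4-OHT array 2 (adjusted p = 0.0555) or vehicle array 1 (adjusted p = 0.110) of that line. Its average was 0.12 ± 0.02 (adjusted p = 0.000126), and without KM-H2 it was 0.05 (adjusted p = 0.131). In L1236, UHO-1 and SUP-HD1 its changes lay between -0.03 and 0.05, and over those lines alone the average was 0.01 (adjusted p = 0.886). MRPL49, another mitochondria-specific protein, read 9.10 and 9.21 with 4-OHT in KM-H2, against 8.82 and 8.74 with vehicle (0.38 ± 0.06, adjusted p = 0.000101). In L1236 it read 10.02 and 9.98 with 4-OHT, against 10.33 and 10.30 with vehicle (-0.31 ± 0.06). The KM-H2 response of MRPL49 lay 0.53 ± 0.07 above the mean of the other lines. MRPS35 and MRPL28 followed the same order, at 0.27 in KM-H2 for each and at -0.39 and -0.21 in L1236. The MRPS35 call in KM-H2 was lost when 4-OHT array 1 (adjusted p = 0.135) or vehicle array 1 (adjusted p = 0.0826) was left out. MRPS9 was called lower in KM-H2 (-0.37 ± 0.11), a call lost without 4-OHT array 2 (adjusted p = 0.355), vehicle array 1 or vehicle array 2.

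MRPL36 is measured by 2 probe sets that disagree. The one with the higher mean, used here, gave an average change of -0.12 ± 0.05 log2 (limma adjusted p = 0.093), with a call in UHO-1 alone (-0.47, adjusted p = 0.00805). That call was lost without UHO-1 4-OHT array 1 (adjusted p = 0.054) or vehicle array 2 (adjusted p = 0.0678). The other probe set gave -0.33 ± 0.03 (adjusted p = 1.61e-08), was called lower in every line and gave -0.31 in L428, where the first gave 0.02. In RefSeq the MRPL36 gene overlaps NDUFS6. Of the members, 30 overlap the span of another gene and 38 have a pseudogene named after them, so part of their signal may come from such copies, which was not tested.

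The genes that build and serve the mitochondrial ribosome moved mostly the same way. Of 4 ribosomal proteins named outside the symbol rule, PTCD3 (-0.10 ± 0.03) and GADD45GIP1 (-0.14 ± 0.04) were called lower on average, and DAP3 and CHCHD1 were not called. Of 12 translation factors and their helpers, 7 were called lower and 1 higher, with a median of -0.14 log2. TUFM, the elongation factor that brings transfer RNAs to the ribosome, averaged -0.22 ± 0.03 and its partner TSFM -0.26 ± 0.04. LRPPRC, which stabilises mitochondrial messenger RNA, averaged -0.25 ± 0.03. The gene called higher was MTRF1L, a release factor (0.15 ± 0.04, adjusted p = 0.00475). Of 23 assembly factors, 14 were called lower and 0 higher on average.

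C1QBP, a matrix protein needed for mitochondrial translation and counted with the assembly factors, was called lower in all 5 lines. In L1236 it read 9.99 and 9.81 with 4-OHT, against 10.84 and 10.81 with vehicle (-0.92 ± 0.07 log2, limma adjusted p = 3.4e-10). Its average was -0.46 ± 0.03 (adjusted p = 1.99e-11), about that of MRPS34. RBFA, which helps mature the small subunit, averaged -0.32 ± 0.04, and MRM1, which methylates the large ribosomal RNA, -0.30 ± 0.04. Of 11 genes for mitochondrial transcription and genome upkeep, 7 were called lower and 0 higher (median -0.20). TWNK, the mitochondrial DNA helicase, averaged -0.39 ± 0.04, and PNPT1, an RNA-degrading enzyme, -0.35 ± 0.04. POLRMT, the mitochondrial RNA polymerase, averaged -0.31 ± 0.04, and TFAM, which packages mitochondrial DNA, -0.27 ± 0.04. The 65 cytosolic ribosomal protein genes tested had 23 called lower and 3 higher on average, with a median of -0.04. Each of these lists was described by its counts beside those of all genes (38.6% called, median -0.02), and the difference between lists was not tested.

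The vehicle arrays give the levels of the family after 24 h without activation. KM-H2 and L428 differed for 52 members, 33 lower and 19 higher in KM-H2, against 54.2% of all genes (26.9% lower, 27.3% higher). MRPL24 read 10.46 and 10.43 in KM-H2, against 9.06 and 9.03 in L428, a difference of 1.40 ± 0.08 log2 (limma adjusted p = 3.16e-13). MRPS33, a mitochondria-specific small-subunit protein, read 9.05 and 9.05 in KM-H2, against 7.71 and 7.58 in L428 (1.40 ± 0.11). At the other end, MRPS12 read 7.66 and 7.61 in KM-H2, against 8.63 and 8.67 in L428 (-1.01 ± 0.09).

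UHO-1 and SUP-HD1 differed for 45 members, 15 lower and 30 higher in UHO-1, against 53.8% of all genes (26.7% lower, 27.1% higher). MRPL20 read 10.3 and 10.2 in UHO-1, against 9.05 and 8.98 in SUP-HD1 (1.28 ± 0.07 log2, limma adjusted p = 6.65e-14). MRPL15 read 9.14 and 9.04 in UHO-1, against 10.25 and 10.08 in SUP-HD1 (-1.07 ± 0.08). L1236 differed from the mean of UHO-1 and SUP-HD1 for 43 members, 19 lower and 24 higher, against 59.4% of all genes (28.6% lower, 30.8% higher); with cyclic loess the split was 26 lower and 19 higher. The largest difference was that of MRPS18B, at 8.66 and 8.62 in L1236 against 10.52 and 10.52 in UHO-1 and 10.09 and 9.99 in SUP-HD1 (-1.64 ± 0.05, adjusted p = 2.16e-18). Among members lower in L1236, MRPL46 (-1.03 ± 0.05) and MRPS11 (-0.95 ± 0.05) came next, the neighbours that also fell with 4-OHT in L1236. MRPL57 was the furthest above, at 8.49 and 8.61 in L1236 against 7.37 and 7.28 in UHO-1 and 7.12 and 7.15 in SUP-HD1 (1.32 ± 0.08).

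**Figure D5:**
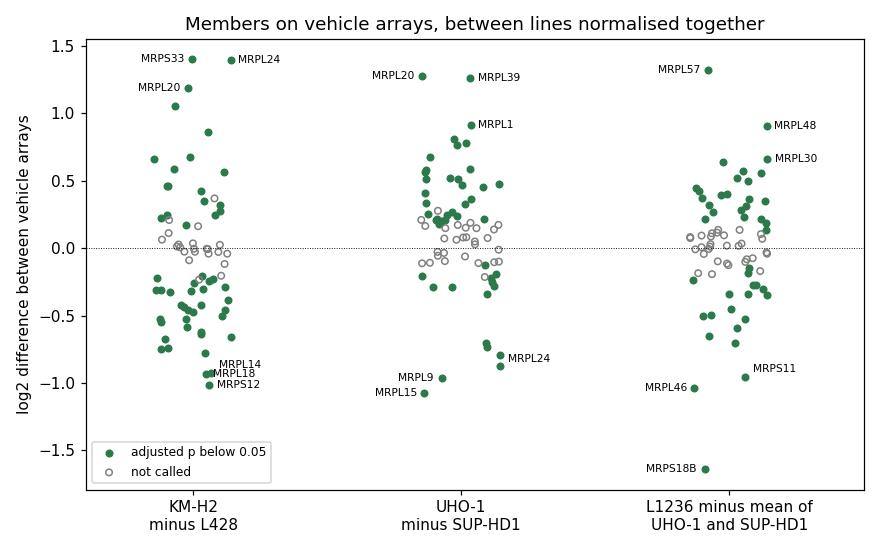
The log2 difference between vehicle arrays for each of the 74 members, in 3 comparisons of lines taken as normalised together. Filled points have an adjusted p below 0.05, and the 3 lowest and 3 highest members are named. Members lie on both sides of 0 in each comparison, from -1.64 (MRPS18B in L1236) to 1.40 (MRPS33 in KM-H2).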

How the data were processed

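Total RNA from 20 samples was hybridised to Human Gene 1.0 ST arrays. The authors deposited log2 RMA values for 33268 probe sets on 20 arrays, per the labels and the design text; version and annotation level are not given in the sources used here. Symbols came from the platform annotation: 19457 probe sets had 1 symbol, 1751 several and 12060 none listed. Per gene the probe set with the highest mean was kept, and genes at log2 5 or above on at least 2 arrays were tested (15850 of 18416). limma 3.58.1 in R 4.3.3 fitted 10 group means with a trended prior (10 residual and 11.8 prior degrees of freedom); p-values are two-sided, Benjamini-Hochberg adjusted over all genes tested. The fit was tested on simulated data. The number of arrays limits the precision.

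Members and lists were chosen with earlier results of these data known. Named genes are the 12 largest falls and 8 largest rises among members called on average (3 rose), the 3 largest called falls and rises per line, the 6 smallest F test p-values, the pseudogene, and MRPL12, MRPS12, MRPS18A, MRPS18B, MRPS18C, MRPS30, MYC, TUFM, TFAM, POLRMT and C1QBP. A part of the rule that ranked members by level was dropped, since levels of different probe sets are not comparable. MRPS30 averaged -0.16 ± 0.03 (adjusted p = 0.000281). Alternatives covered the scaling, floor, prior, probe set choice, replicate block, single lines and each array left out. The main fit did not pair arrays by replicate number. Correlations of same-numbered deviations were 0.28 for SUP-HD1, 0.29 for UHO-1, 0.04 for L428, -0.08 for KM-H2 and -0.56 for L1236. Whether the numbers mark pairs was not tested, and fits with the number as a block are given below.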

Additional observations from a re-analysis of the deposited data

Results flagged for a closer look

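The response to 4-OHT differed between the 5 lines for 43 members by the moderated F test. The smallest adjusted p-values were those of MRPL46 (3.48e-08), MRPS11 (6.2e-06), MRPL49 (1.54e-05), MRPL15 (3.45e-05), MRPS26 (0.000118) and MRPL53 (0.000171). MRPL46 and MRPS11 were called higher in L428 and UHO-1 and lower in L1236. MRPL49 was called higher in KM-H2 and lower in L428 and L1236. MRPL15 fell in KM-H2, L428 and L1236 and had a change of 0.13 log2 in UHO-1. MRPS26 fell in every line other than KM-H2, and MRPL53 rose in KM-H2 and L428.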

How the results depend on the processing

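The count of members called on average (53) stayed between 50 and 54 under other scalings, floors, priors and probe set rules, and between 52 and 56 without any single array; with KM-H2 and L428 alone it was 45 and with the other 3 lines alone 37. With the 5 lines as the replicates it was 0. With cyclic loess the L428 count (47) was 35, 32 lower and 3 higher, with a member median of -0.18 log2. The L1236 count (47) was then 41, all lower, with a median of -0.24. With median centring 49 members were called in L428 and 43 in L1236. The SUP-HD1 count (6) was 3 with no floor and 1 without a trended prior. Leaving out 1 array gave 1 to 6 in SUP-HD1, 7 to 17 in UHO-1, 10 to 18 in KM-H2, 38 to 48 in L1236 and 32 to 48 in L428, 36 to 47 for the F test, and 44 to 53, 34 to 46 and 38 to 44 for the vehicle comparisons KM-H2 with L428, UHO-1 with SUP-HD1 and L1236 with both. The KM-H2 member median (-0.06) was -0.02 with median centring, and the UHO-1 median (-0.02) was -0.06 with median centring and -0.07 with cyclic loess; in SUP-HD1 loess called 5 lower and 2 higher. The average of MRPL46 was reversed without L428 (-0.011), and MRPL36 in L428 was reversed with its other probe set (-0.31), which was added after the data were seen. With the replicate number as a block, 52 members were called on average, 4 in SUP-HD1, 12 in UHO-1, 16 in KM-H2, 46 in L1236, 47 in L428 and 41 by the F test; with the numbers of L1236 crossed, chosen after seeing the data, 55 on average and 51 in L1236. Of 1020 values of single named members with 1 array left out, 26 lost a call and 3 gained one; of 571 under other settings, 29 lost a call and 6 gained one. The cause was not tested. With 2 arrays a group, the SE of a member's change in a line ran from 0.051 log2 (MRPL53) to 0.171 (MRPS18C).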
